A study of Homo sapiens with 21 samples.

Results

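Retinoid signalling runs through nuclear receptors that bind retinoic acid, the active form of vitamin A. The retinoic acid receptors alpha, beta and gamma (RARA, RARB and RARG) pair with the retinoid X receptors alpha, beta and gamma (RXRA, RXRB and RXRG) on direct repeats of a short DNA element. CRABP2 carries retinoic acid to the nucleus, and the enzymes CYP26A1 and CYP26B1 break it down. In breast cancer cells RARA is known as an estrogen-induced gene through estrogen receptor alpha, and retinoic acid slows the growth of many such cells. These 9 genes were followed in maps of ER-beta, the second estrogen receptor (gene ESR2), a steroid receptor that binds the estrogen response element (ERE), an inverted repeat of GGTCA.

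The maps came from chromatin immunoprecipitation and sequencing (ChIP-seq) in MDA-MB-231, a triple-negative breast cancer line, carrying a doxycycline-inducible ER-beta that was precipitated with a Flag antibody. All cells, the vehicle cells included, received doxycycline at 100 ng/ml for 24 h, so the receptor was induced in every group. They were then given 1 nM estradiol, LY500307 (an ER-beta-selective agonist) or ethanol vehicle for 3 h. The titles state 1 nM LY500307 and other label fields state 10 nM, so the LY500307 dose is uncertain. The labels list 4 ChIP and 3 input libraries for each treatment, 21 in all, and the receptor is an introduced, tagged copy in 1 cell line.

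The data are 1 pooled list of enriched regions for each treatment. After regions outside chromosomes 1 to 22, X and Y were set aside, 26861 regions remained under estradiol, 10045 under LY500307 and 2905 under ethanol. Read totals were not part of the lists, so the depth behind a region is unknown. No list of a single library was analysed here, so the values have no error from replicates and the treatments were not tested against each other. The fold of a region is the authors' ratio of ChIP signal over local background, scaled separately for each pool. Folds and ranks from different lists are therefore set side by side and do not measure a change.

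A region was assigned to a gene when its summit, the base of highest signal, lay in the gene body or within 50 kb of it. By this rule 37 estradiol regions, 11 LY500307 regions and 2 ethanol regions belonged to the 9 retinoid genes. Of the 9 genes, 6 were reached under estradiol, 4 under LY500307 and 2 under ethanol. These shares of 66.7%, 44.4% and 22.2% lay near those of all 20033 protein-coding genes, of which 74.5% had an estradiol region within the same distance, 49.1% an LY500307 region and 22.8% an ethanol region. By this share the retinoid genes were reached about as often as other genes. Per 100 kb searched, they had 1.77 estradiol, 0.528 LY500307 and 0.0959 ethanol regions. Over the windows of all protein-coding genes these values were 1.23, 0.454 and 0.132. The regions were unevenly spread among the 9 genes. RARA had 11 estradiol regions, RXRA 10, CRABP2 8, RARB 3, RARG 3 and CYP26B1 2. RXRB, RXRG and CYP26A1 had none in any list.

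**Figure D1:**
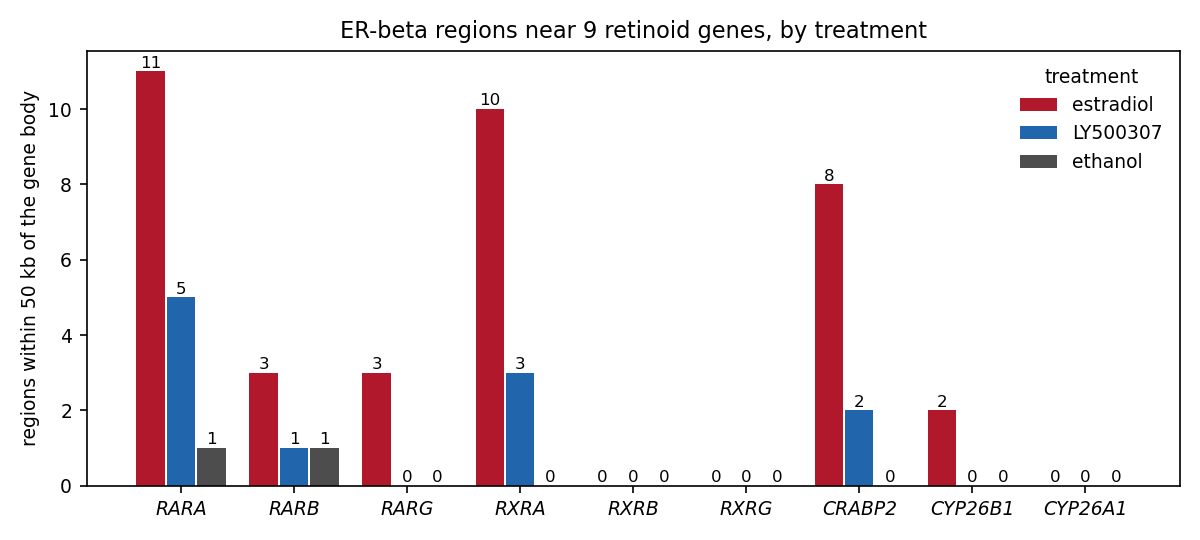
Number of ER-beta regions (y axis) with a summit within 50 kb of each retinoid gene (x axis), with bars for the estradiol, LY500307 and ethanol lists. RARA (11, 5 and 1 regions) and RXRA (10, 3 and 0) held the most, while RXRB, RXRG and CYP26A1 held 0 in every list.

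The DNA under these summits is shown first, since the ERE is the element ER-beta is known to bind. An ERE was scored as GGTCANNNTGACC on either strand, allowing 1 mismatch among the 10 fixed bases, in the 201 bp around the summit. No region near the 9 genes held an ERE without a mismatch, which was rare in the whole estradiol list too, at 1.65% of regions. Of the 37 estradiol regions, 5 held one with 1 mismatch, 13.5%, against 12.1% of all. Each is given below on the plus strand of hg38 with 14 bases on either side and the ERE in capitals. Substitutions are counted from 1 at the 5′ end of the ERE, with the base of the motif first.
RARA first intron, chr17:40322478-40322518, substitution G1T: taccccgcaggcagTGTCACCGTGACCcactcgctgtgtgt
RARA coding exon, chr17:40354323-40354363, substitution T3A: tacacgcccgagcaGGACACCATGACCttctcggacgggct
RARA downstream, chr17:40387871-40387911, substitution G10A: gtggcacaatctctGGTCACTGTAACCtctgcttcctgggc
RARG intron 3, chr12:53223925-53223965, substitution T9G: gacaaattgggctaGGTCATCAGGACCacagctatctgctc
RXRA first intron, chr9:134338427-134338467, substitution A5C: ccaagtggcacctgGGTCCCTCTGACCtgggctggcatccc
With exactly 1 mismatch in each of the 5 sites, 1 arm of the repeat is by definition complete and the other differs by a single base. The centre of the site lay 5 bp from the summit in the RARA first intron, the nearest of the 5, and 13 to 35 bp from it in the others.

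Several strong regions without an ERE held single GGTCA elements. GGTCA was sought on both strands with no mismatch, and it also forms part of a complete ERE arm. The 201 bp around the highest region of RXRA, around the second highest of RARA and around the promoter region of RARG each held 2 copies, capitalised here as GGTCA or as its reverse complement TGACC. The RARB window is shown beside them because that region was found in all 3 lists with no GGTCA.
RARA, chr17:40311349-40311549: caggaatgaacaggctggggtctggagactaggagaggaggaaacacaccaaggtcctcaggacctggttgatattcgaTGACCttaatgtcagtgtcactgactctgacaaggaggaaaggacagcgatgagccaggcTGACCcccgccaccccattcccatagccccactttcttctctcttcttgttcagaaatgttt
RXRA, chr9:134359465-134359665: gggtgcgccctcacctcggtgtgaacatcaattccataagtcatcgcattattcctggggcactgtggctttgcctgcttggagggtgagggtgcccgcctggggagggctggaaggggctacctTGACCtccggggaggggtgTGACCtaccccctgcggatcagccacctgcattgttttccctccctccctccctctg
RARG, chr12:53233378-53233578: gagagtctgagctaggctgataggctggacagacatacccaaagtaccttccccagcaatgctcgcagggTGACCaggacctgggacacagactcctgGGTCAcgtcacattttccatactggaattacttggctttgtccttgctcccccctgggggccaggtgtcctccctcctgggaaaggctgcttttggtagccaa
RARB, chr3:25285374-25285574: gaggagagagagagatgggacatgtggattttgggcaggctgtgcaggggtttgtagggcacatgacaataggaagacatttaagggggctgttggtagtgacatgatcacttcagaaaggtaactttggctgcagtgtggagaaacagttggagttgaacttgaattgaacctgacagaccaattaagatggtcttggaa

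RARA, the retinoic acid receptor alpha gene, held the strongest binding of the set. The gene spans chr17:40309180-40357643 on the plus strand, and 9 of its 11 estradiol regions lay inside it. The highest region, chr17:40321860-40322847 in the first intron, had a fold of 180.0 under estradiol, 102.1 under LY500307 and 28.8 under ethanol. It ranked 14 of 26861 by fold under estradiol, 27 of 10045 under LY500307 and 88 of 2905 under ethanol, and was thus near the top of every list. The deposited −log10 q was 759.9 under estradiol, 475.9 under LY500307 and 159.0 under ethanol. The 3 summits lay within 6 bp of each other, and the regions were 988, 623 and 382 bp wide in the estradiol, LY500307 and ethanol lists. This region sat 13.3 kb downstream of the main RARA start site and 4.21 kb from the nearest annotated RARA start, and it carries the first of the ERE sequences above.

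Of the RARA regions, 6 stood within 11.6 kb of each other in the first intron. A pair lay close to the start site and were also found under LY500307 but not under ethanol. The region at chr17:40311205-40311835 had a fold of 93.4 under estradiol (rank 732) and 27.9 under LY500307 (rank 1092). Its neighbour at chr17:40312237-40312873 had a fold of 44.9 under estradiol (rank 2600) and 16.9 under LY500307 (rank 2200). The other 3 were listed under estradiol alone, at folds of 15.0 and 12.5 and, for the weakest, at rank 21704. The one with a fold of 12.5, at chr17:40317594-40317937, lay 518 bp upstream of an internal RARA start and held 2 GGTCA copies on the same strand, 1 base apart. Because of that start, it is counted as a promoter region in the annotation totals below.

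Further along RARA, the second intron held a region at chr17:40339305-40339722 with a fold of 42.0 under estradiol (rank 2842) and 9.84 under LY500307 (rank 4291). A second one in that intron had a fold of 6.71 under estradiol alone. The coding-exon region with the T3A site, chr17:40354186-40354506, had an estradiol fold of 9.51 and was in neither of the other lists. Outside the gene, the promoter of CDC6, a replication licensing gene, held a region with a fold of 8.49 under estradiol and 7.44 under LY500307. The region with the G10A site had an estradiol fold of 7.57 and lay 1.72 kb from the nearest start of TOP2A, a topoisomerase gene. So of the 3 RARA regions with an ERE, 1 was in all lists and 2 were weak and listed under estradiol alone.

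**Figure D2:**
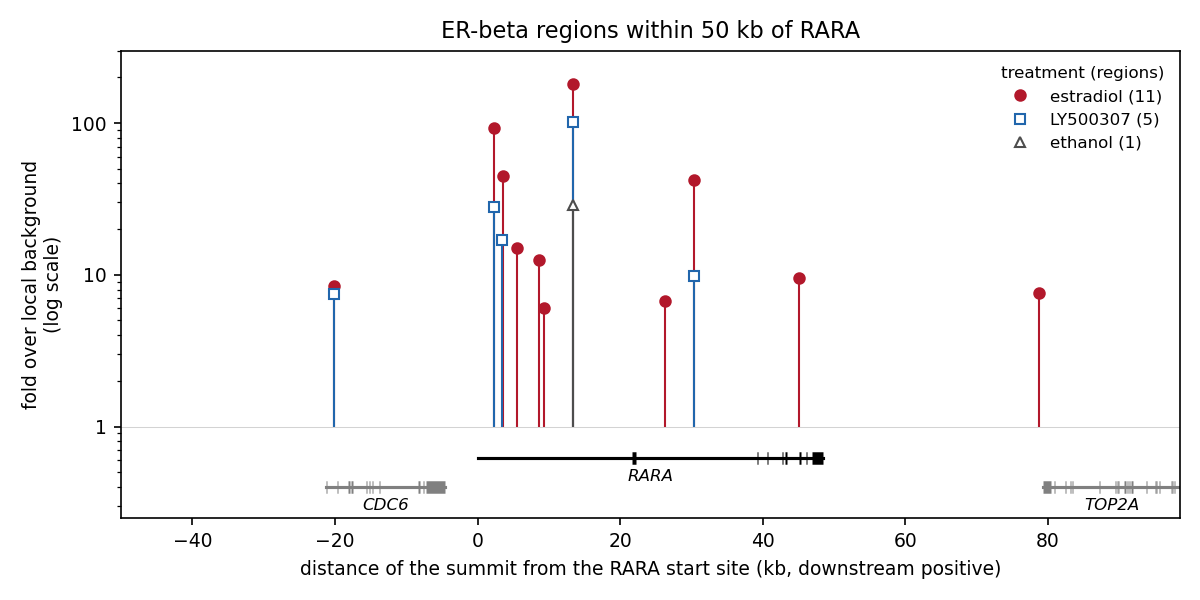
Distance of each summit from the main RARA start site in kb (x axis) against its fold over local background on a log scale (y axis) in the estradiol, LY500307 and ethanol lists, with gene models and exons underneath. The stems cluster in the first intron, where the tallest reach 180.0 under estradiol, 102.1 under LY500307 and 28.8 under ethanol.

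RARA stood high among genes by number of regions. With estradiol, 3.08% of protein-coding genes had 11 or more, and under LY500307, 3.89% had 5 or more. The median gene had 2 estradiol regions and 0 LY500307 regions. A further strong region, in the IGFBP4 gene at chr17:40448531-40449135, lay 91.2 kb from RARA and so outside the distance used, with folds of 183.5 under estradiol, 112.7 under LY500307 and 30.8 under ethanol. IGFBP4 encodes a binding protein for insulin-like growth factors.

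RARB, the retinoic acid receptor beta gene, is annotated over chr3:24687887-25597932, 910.0 kb, and held 3 estradiol regions. Per 100 kb searched this was 0.297 estradiol regions, against 7.41 for RARA and 1.23 over the windows of all protein-coding genes. The region at chr3:25285412-25285611 was found in all 3 lists, in a long intron 142.4 kb upstream of the nearest RARB start. It had a fold of 3.37 under estradiol, 7.91 under LY500307 and 7.93 under ethanol. It was thus at rank 26842 of 26861 under estradiol, nearly the lowest, but at rank 5548 of 10045 under LY500307 and 1142 of 2905 under ethanol. Its deposited −log10 q was 3.55 under estradiol, 14.8 under LY500307 and 12.2 under ethanol. Both listed values were thus lowest in the estradiol list, which does not measure a change between treatments. This region was the only one of the 11 regions shared by estradiol and LY500307 whose listed fold was lower under estradiol. The gene's highest estradiol region, chr3:25571955-25572202 in the fourth intron, had a fold of 9.63 and was in neither other list. The third, in the fifth intron, had a fold of 5.81, also under estradiol alone.

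RARG, the retinoic acid receptor gamma gene at chr12:53210567-53232980 on the minus strand, was reached under estradiol alone. Its highest region, chr12:53233297-53233638, lay in the promoter 498 bp upstream of the nearest RARG start, with a fold of 22.0 (rank 5959). A pair of weaker regions in the third intron had folds of 6.25, at the T9G site, and 5.00. The nearest LY500307 summit was 111.1 kb from the gene, at a fold of 30.4 near IGFBP6, and the nearest ethanol summit 219.6 kb away.

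RXRA, the retinoid X receptor alpha gene and common partner of the RARs, spans chr9:134317098-134440585. It had 10 estradiol and 3 LY500307 regions within 50 kb, of which 7 and 1 lay inside the gene. With estradiol, 4.24% of protein-coding genes had as many or more, and under LY500307, 13.3% did. The highest region, chr9:134359357-134359784 in the first intron, had a fold of 79.4 under estradiol (rank 1062) and 15.5 under LY500307 (rank 2450), and none was listed under ethanol. A pair of regions past the end of the gene were also shared. The one at chr9:134459014-134459591, 18.8 kb beyond the gene, had a fold of 33.4 under estradiol and 13.3 under LY500307. The one 15.6 kb beyond the gene, chr9:134455972-134456328, had a fold of 15.8 under estradiol and 6.31 under LY500307. The other 7 were listed under estradiol alone at folds of 4.60 to 13.8, and included the A5C site at chr9:134338232-134338639 with a fold of 13.3. Of these, the region at chr9:134273228-134273459 lay 43.8 kb before the gene. The nearest ethanol summit was 941.4 kb from the gene.

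The other RXR genes had no region in any list. For RXRB the nearest summits were 376.6 kb away under estradiol, 378.9 kb under LY500307 and 390.1 kb under ethanol, all nearest to BAK1. For RXRG they were 151.0 kb away under estradiol, 201.9 kb under LY500307 and 202.0 kb under ethanol, all nearest to MGST3. Thus RXRA was the 1 RXR gene with a listed region within the distance used.

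CRABP2, the carrier of retinoic acid at chr1:156699606-156705816, had 8 estradiol and 2 LY500307 regions in its window but none in the gene body. Only 1 of the 8, chr1:156709553-156709865, had CRABP2 as its nearest start. It lay 3.91 kb upstream, with an estradiol fold of 10.2, and was in neither other list. The highest, chr1:156748625-156748969, lay in the first intron of HDGF, a growth factor gene, with a fold of 19.9 under estradiol (rank 6622) and 7.97 under LY500307 (rank 5389). Another HDGF region, in a coding exon, had a fold of 8.78 under estradiol and 6.07 under LY500307. The remaining 5 had estradiol folds of 5.36 to 18.5 near NES, METTL25B, MRPL24 and HDGF. The nearest ethanol summit lay 61.9 kb away near PRCC. By estradiol regions per 100 kb, CRABP2 had 7.53, close to RARA, but in a window where most of the binding was nearer to other genes.

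**Figure D3:**
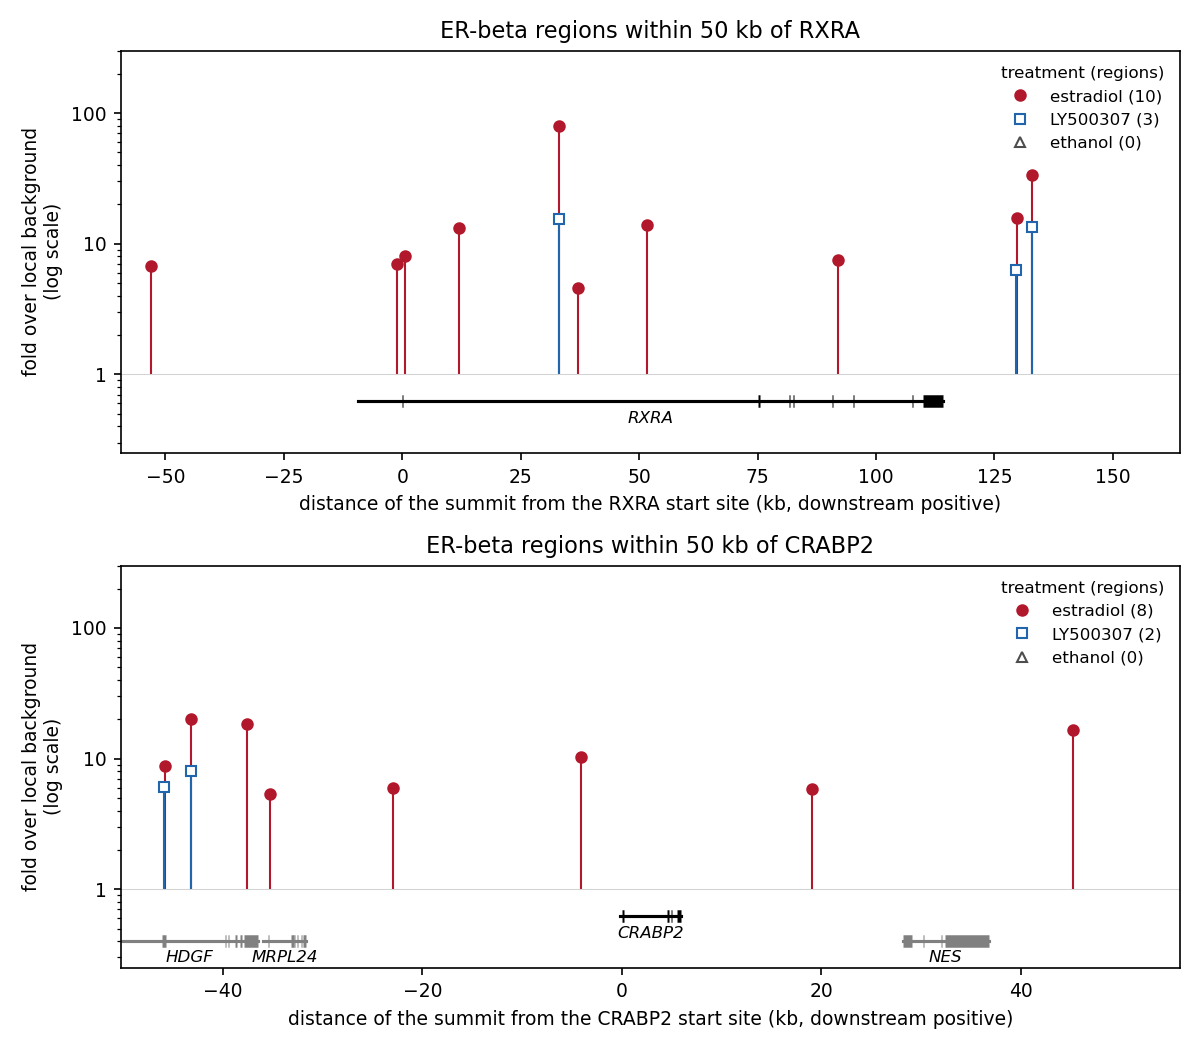
Distance of each summit from the start site in kb (x axis) against its fold over local background on a log scale (y axis) for RXRA (top) and CRABP2 (bottom), in the estradiol, LY500307 and ethanol lists, with gene models underneath. RXRA carries its highest region, at 79.4 under estradiol and 15.5 under LY500307, inside its first intron, whereas the 8 CRABP2 regions all lie outside the gene.

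Of the retinoic acid degrading enzymes, CYP26B1 at chr2:72129238-72147862 had 2 estradiol regions and none under LY500307 or ethanol. The higher, chr2:72138248-72138599 in the second intron, had a fold of 9.38. The other had a fold of 8.98, 523 bp upstream of an internal CYP26B1 start. The nearest LY500307 summit was 178.3 kb away. CYP26A1, at chr10:93073475-93077885, had no region. Its nearest summits were 196.8 kb away under estradiol, at a fold of 27.2, and 404.3 kb under LY500307 and 404.4 kb under ethanol, both near MYOF. None of the 17 RefSeq promoter windows of the 9 genes, from 250 bases before to 50 after each start, overlapped a region of any list. The share over all RefSeq promoter windows is not given here, so this count is not read as particular to these genes.

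As in the whole list, the regions shared between treatments were mostly the strong ones of the estradiol list. All 11 LY500307 regions and both ethanol regions near the 9 genes overlapped an estradiol region by at least 1 bp, so none was listed under LY500307 or ethanol alone. In the whole lists, 9082 estradiol regions overlapped one of the 10045 LY500307 regions, and 2488 overlapped one of the 2905 ethanol regions. The share of all LY500307 or ethanol regions that overlap an estradiol region is not given here. Of the 37 estradiol regions, 26 were in that list alone, 9 were shared with the LY500307 list alone and 2, in RARA and RARB, were in all 3 lists. The share found under LY500307 was 29.7% (95% exact binomial interval 15.9 to 47.0%), against 33.8% of all estradiol regions. The share found under ethanol was 5.41% (0.661 to 18.2%), against 9.26% of all. Both intervals, which cover counting error only, held the value of the whole list. Of the 8 regions in the top 25% of the estradiol list by fold, 7 were found under LY500307, as were 89.5% of all regions in that range. The exception was the RARG promoter. Of the 19 below the list's median fold, 3 were found under LY500307, against 9.97% of all such regions. The shared regions had a median fold of 33.4 (3.37 to 180.0, n = 11), and those not shared 7.78 (4.60 to 22.0, n = 26). In the whole list the medians were 27.7 and 7.59.

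**Figure D4:**
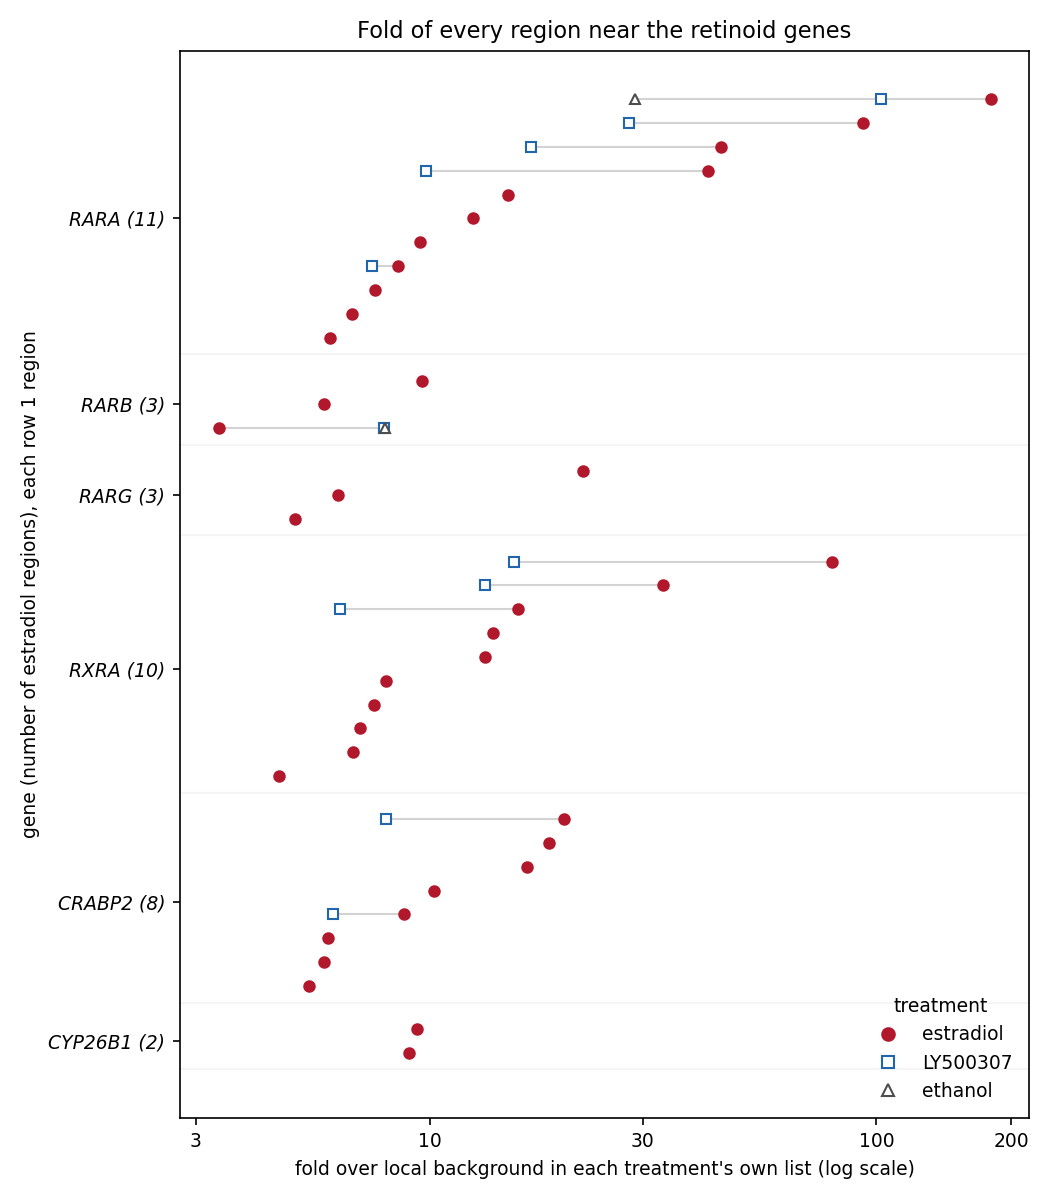
Fold over local background on a log scale (x axis) of each of the 37 regions near the retinoid genes (rows on the y axis, grouped by gene and ordered by estradiol fold), with markers for the estradiol, LY500307 and ethanol lists. Among the shared regions the estradiol marker lies to the right in all but the RARB region, where it stands at 3.37 against 7.91 under LY500307 and 7.93 under ethanol.

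In median fold and width the regions near the retinoid genes were much like the rest of the list. Their median estradiol fold was 9.38, against 9.50 over all regions, and their median width 321 bp, against 330 bp. Only 4 of the 37 were in the top 10% of the estradiol list, 3 in the first intron of RARA and 1 in the first intron of RXRA. By annotation 21 lay in introns, 7 in intergenic DNA, 6 in promoters, 2 in coding exons and 1 in an untranslated exon. The nearest start site was that of one of the 9 genes for 26 of them. Annotation and nearest start were not set against the whole list. The median GC content of the 201 bp around the summit was 61.2%, against 54.7% over all estradiol regions. At the edge of the distance used, the last estradiol region inside lay 45.6 kb from CRABP2 with a fold of 8.78, and the first outside 60.0 kb from RARA with a fold of 6.54.

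The motif counts were also close to those of the whole list. An ERE with at most 1 mismatch was in 5 of the 37 estradiol regions, 13.5% (4.54 to 28.8%), against 13.8% of all estradiol regions. It was in 1 of the 11 LY500307 regions, against 15.7% of all LY500307 regions. The 5 regions with an ERE had a median estradiol fold of 9.51 (6.25 to 180.0), and the 32 without one 9.18 (3.37 to 93.4). Over all estradiol regions the medians lay further apart, at 14.5 with an ERE and 8.98 without. A GGTCA was in 28 of the 37, 75.7%, against 71.2% of all. Of these, 23 had no ERE, and 9 regions had neither. Of all 26861 estradiol regions, 15422 had a GGTCA without an ERE and 7732 had neither. The AP-1 motif TGANTCA, sought with no mismatch, was in 6 regions, against 17.5% of all. The SP1 motif GGGCGG, also with no mismatch, was in 7, against 20.8% of all. Both were sought on either strand.

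Direct repeats of AGGTCA, the kind of element on which RARs and RXRs themselves bind, were sought with at most 1 mismatch on either strand. The repeat spaced by 5 bases (DR5, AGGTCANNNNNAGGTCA), by 2 bases (DR2, AGGTCANNAGGTCA) and by 1 base (DR1, AGGTCANAGGTCA) was each in 0 of the 37 estradiol regions, which allows a share of up to 9.49% by the exact interval. In the whole estradiol list the shares were 0.983% for DR5, 1.07% for DR2 and 0.544% for DR1. Each of these repeats includes GGTCA, so the searches overlap. The motif matches describe letters in these windows and do not show which factor bound there.

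**Figure D5:**
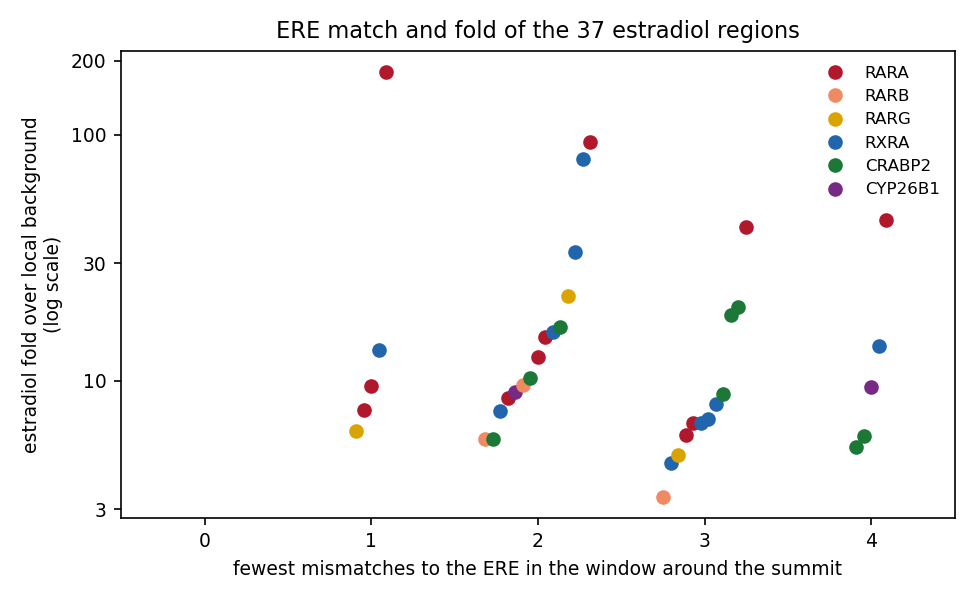
Fewest mismatches to the ERE within the 201 bp around the summit (x axis) against estradiol fold on a log scale (y axis) for the 37 estradiol regions near the retinoid genes, coloured by gene. None has 0 mismatches, 5 have 1, and the fold runs from 6.25 to 180.0 among those 5 and up to 93.4 among the regions with 2 or more.

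Beyond the 9 genes, 21 further retinoid genes were looked at, 15 of retinoid transport and metabolism and 6 known to respond to retinoic acid. Of the 21, 14 (66.7%) had an estradiol region within 50 kb, 9 (42.9%) an LY500307 region and 4 (19.0%) an ethanol region, again near the shares of all protein-coding genes. Among the transport and metabolism genes these were 10 genes under estradiol, 6 under LY500307 and 3 under ethanol. Among the responsive genes they were 4 under estradiol, 3 under LY500307 and 1 under ethanol. CRABP1, RBP2, RDH11, BCO1, CYP26C1, RARRES1 and PLAAT4 had no region in any list.

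The strongest of these lay in TGM2, a transglutaminase gene induced by retinoic acid, whose window held 21 estradiol, 13 LY500307 and 3 ethanol regions. TGM2 had the nearest start for 13 of the 21. Its sixth-intron region, chr20:38144777-38145675, had a fold of 158.3 under estradiol (rank 73), 73.0 under LY500307 (rank 147) and 34.4 under ethanol (rank 54). DHRS3, an enzyme that turns retinaldehyde back into retinol, had a first-intron region at chr1:12600161-12600839 with a fold of 119.7 under estradiol (rank 332), 49.4 under LY500307 (rank 404) and 7.50 under ethanol (rank 1296). A second DHRS3 region, intergenic at chr1:12549564-12550159, had a fold of 55.5 under estradiol, 17.5 under LY500307 and 7.58 under ethanol. It is printed here because it held a complete ERE, as did 1.65% of all estradiol regions and none of those near the 9 genes.
DHRS3 intergenic, chr1:12549746-12549786: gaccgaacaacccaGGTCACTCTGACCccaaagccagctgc
DHRS3 first intron, chr1:12600531-12600571, substitution A11C: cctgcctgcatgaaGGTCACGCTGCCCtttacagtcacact

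DHRS9, ALDH1A1 and RBP7 each had 1 estradiol region that was also listed under LY500307. The promoter of DHRS9, a retinol dehydrogenase gene, held chr2:169069400-169069834 with a fold of 50.03 under estradiol and 16.8 under LY500307. A region 38.7 kb from ALDH1A1, a retinaldehyde dehydrogenase gene, had a fold of 53.5 under estradiol and 9.37 under LY500307, and its nearest start was that of ANXA1. RBP7, a retinol-binding protein gene, had one 2.76 kb past its end with a fold of 47.5 under estradiol, 14.4 under LY500307 and 8.50 under ethanol, and its nearest start was that of UBE4B. ALDH1A2, another retinaldehyde dehydrogenase gene, had 8 estradiol regions up to a fold of 27.9, 3 LY500307 regions up to 7.85 and 1 ethanol region at 8.97. All 8 had ALDH1A2 as their nearest start, though some lay in introns of the neighbouring gene LIPC. The ethanol region was among these, 19.3 kb outside ALDH1A2. It was in all 3 lists, with folds of 6.70 under estradiol and 4.52 under LY500307. The window of RARRES2, a retinoic acid responsive gene, held 10 estradiol regions up to a fold of 25.7 and 4 LY500307 regions up to 6.09. Only 1 of the 10, with a fold of 9.73 under estradiol alone, had RARRES2 as its nearest start. The highest was in the promoter of LRRC61, and the 4 shared regions lay nearest to ACTR3C or ZNF775. The windows of the remaining genes held weaker estradiol regions, none of them shared: RBP4 had 1 at a fold of 18.5, LRAT 3 up to 14.5, CDX1 3 up to 13.4, STRA6 2 up to 11.6, ALDH1A3 3 up to 10.7, STRA8 6 up to 9.60 and RDH10 2 up to 6.25. The gene itself had the nearest start for 0 of the 3 regions of CDX1, which lay in introns of PDGFRB, 0 of 2 for STRA6, 1 of 3 for LRAT, 1 of 3 for ALDH1A3, 2 of 6 for STRA8, 1 of 2 for RDH10 and 1 of 1 for RBP4. An LY500307 region without an overlapping estradiol region occurred once near RDH10, at a fold of 5.40, and once near CDX1, at a fold of 5.59.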

How the data were processed

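Per the submitters' processing notes, the tools were Bowtie2 2.2.6, MACS2 2.1.1.20160309 and DiffBind on hg38, with roles not given in the sources used here. The deposited files are narrowPeak lists, 1 per treatment. The labels of the ChIP libraries of a treatment point to its list, so it was read as pooled, and how many libraries went in is uncertain, since the protocol describes triplicates. The fold is the authors' ratio over local background. The authors' deposited −log10 p and −log10 q come from their peak caller, and the summit is the deposited offset from the region start. The deposited display score was not used. Single libraries, inputs and DiffBind comparisons were not analysed here.

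Only chromosomes 1 to 22, X and Y were used, 26861 of 26896 with estradiol, 10045 of 10059 with LY500307 and 2905 of 2911 with ethanol. Positions are 1-based. Genes, exons and start sites came from GENCODE 44, with distances from the main (MANE Select) start, promoters taken as the 1000 bp before and 100 bp after a protein-coding start, and RefSeq promoter windows matched by symbol for 9 of 9 genes. Regions overlapping by at least 1 bp were shared. Sequences are the hg38 reference. Motif search and overlap rule were tested on simulated data. Python 3.11.15, numpy 2.4.6, pandas 2.3.3, scipy 1.17.1, pysam 0.24.0 and matplotlib 3.10.9 were used. Intervals are 95% exact binomial (Clopper-Pearson) and cover counting error only.

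The genes, the wider gene list and the rules were chosen with earlier results of these data known. Of the wider gene list, 2 genes are not reported here and are left out of its counts. Named were each gene's highest estradiol region, regions in all 3 lists, regions of other lists without an estradiol overlap, complete EREs, and the nearest summit for a gene with none. Others named in the text were chosen after their values were seen. Alternatives tried were distances of 20 and 100 kb, −log10 q or fold of at least 5, lists of equal length, the nearest start site, an overlap of 50% of each region, summits within 200 bp, other ERE mismatch limits and ranks by −log10 q.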

Additional observations from a re-analysis of the deposited data

How the results depend on the processing

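No paired analysis was possible because each treatment has 1 pooled list and the libraries had no lists of their own, and for the same reason no replicate could be left out. Of 63 alternative values other than ranks, 54 stayed within the limits set (1.5 times for counts, the binomial interval for shares). With each list held to its 2905 regions of highest fold, 5 estradiol regions near 2 of the genes and 4 LY500307 regions near 2 of the genes were left. Of those 5 estradiol regions, 80.0% were found with LY500307 and 20.0% with ethanol. The shares over all regions at this length are not given here. At 100 kb, 4 ethanol regions were counted. The ERE share was 0% with no mismatch, against 1.65% of all estradiol regions, and 54.1% with at most 2. Regions whose best match had exactly 2 mismatches made up 40.5% of the 37, against 30.8% of all. Of 50 ranks, 3 moved by over 1.5 times by −log10 q, all of the RARA first-intron region, to 29 with estradiol, 42 with LY500307 and 45 with ethanol. Without replicate lists or read totals, a region missing from a list cannot be told apart from one below that list's threshold.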
